A study of Homo sapiens with 6 samples.

Results

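Argonaute binding was followed on 4 transcripts that encode extracellular matrix proteins or a contractile filament protein: FN1, COL4A1, TGFBI and TPM1. They were taken by gene name from a table of 16230 Argonaute crosslink sites in 4361 named genes, in which they hold 245 sites. FN1 has 196 of them, COL4A1 13, TGFBI 11 and TPM1 25. The assay was PAR-CLIP, in which cells take up 4-thiouridine, ultraviolet light joins it to bound protein, and the joined position is read as a base change at a T. The material was HK2, an established human cell line from the kidney proximal tubule, labelled WT. The comparison is between 2 Argonaute libraries from cells that received TGF-beta1 (20 ng/mL, 24 h) and 2 from control cells. All were serum starved for 24 h, given 100 uM 4-thiouridine for 20 h and irradiated at 365 nm. For the 2 IgG libraries there are no values (not analysed here), and the background of the pull-down is therefore unknown.

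Fibronectin (FN1) is a secreted glycoprotein that links collagens to integrins on the cell surface. COL4A1 encodes a chain of type IV collagen, the network former of basement membranes. TGFBI encodes a secreted protein that binds collagens and integrins and is named for its induction by TGF-beta, and TPM1 encodes a tropomyosin, which lies along actin filaments and sets how myosin can use them. TGF-beta1 is the main signal that drives matrix production by kidney cells. Argonaute proteins carry microRNAs, which pair through their seed (bases 2 to 8) mostly with 3′ UTRs and reduce the amount or the translation of the mRNA.

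The sites on which most of the results rest are shown first, as 29 nt of RNA sense sequence from the deposited table with the crosslinked T at position 15 (hg38). Capitals mark the seed match that the authors list. At the TPM1 miR-29a sites the capitals do not span bases 2 to 8 of miR-29a-3p. Complementary letters there span bases 1 to 8 at the first site and 2 to 9 at the second. All but the FN1 coding site lie in 3′ UTRs.
FN1, miR-183 match, chr2:215360909-215360937, minus strand: ttttttatactgtatGTGCCAaagcttta
FN1, miR-27 match downstream of it, chr2:215360893-215360921, minus strand: tgccaaagctttactACTGTGgaaagaca
FN1, second miR-27 match, chr2:215361111-215361139, minus strand: aagcatgatcttgttACTGTGAtatttta
FN1, miR-200b match, chr2:215361297-215361325, minus strand: gtattcaataccgctCAGTATTttaaatg
FN1, coding, miR-17 family match, chr2:215394616-215394644, minus strand: ctgatcagagctcctGCACTTTtgataac
COL4A1, miR-181 match, chr13:110149564-110149592, minus strand: taaagactaggatatTGAATGTgaaacat
COL4A1, miR-26 match, chr13:110149387-110149415, minus strand: aatcacaaactgaatgACTTGActtcaaa
TGFBI, miR-21 match, chr5:136063636-136063664, plus strand: agaaatggcatcattATAAGCTatgagtt
TPM1, miR-29a match, chr15:63071514-63071542, plus strand: caatcaggtgtggattGGTGCTActttga
TPM1, second miR-29a match, chr15:63070475-63070503, plus strand: tttactcagtctaatGGTGCTgttggagt
TPM1, miR-22 match, chr15:63071729-63071757, plus strand: acacgtGCAGCTcatgacaatctgtagga

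The mature microRNAs named for these sites, with bases 2 to 8 in capitals, are given from RefSeq (GRCh38.p14). They are shown so that the seed can be read against the windows above.
miR-183-5p: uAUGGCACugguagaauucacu
miR-96-5p: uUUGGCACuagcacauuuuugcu
miR-27a-3p: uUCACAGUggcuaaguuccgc
miR-200b-3p: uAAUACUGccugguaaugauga
miR-17-5p: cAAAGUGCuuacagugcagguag
miR-181a-5p: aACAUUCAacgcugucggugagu
miR-26a-5p: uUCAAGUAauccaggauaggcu
miR-21-5p: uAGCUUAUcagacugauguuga
miR-29a-3p: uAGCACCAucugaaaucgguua
miR-22-3p: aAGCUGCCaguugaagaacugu

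The TGF-beta1 libraries were deeper, with 5293207 and 3415699 reads for replicates 1 and 2, against 1714444 and 1926255 in control libraries. At the listed sites they held 74969 and 72206 crosslinked reads, against 36958 and 53835 in control libraries. Counts are therefore given beside scaled RPM, which are crosslinked reads relative to the total reads of the library (RPM) after TMM scaling. Of 12 epithelial marker genes 4 had a site (CLDN1, JUP, KRT18, TJP1), and their summed level was 18.4 and 18.2 scaled RPM in TGF-beta1 libraries and 30.4 and 27.7 in control libraries. They did not move together: CLDN1 had 15 and 11 reads after TGF-beta1 and 35 and 26 in control cells, JUP had an adjusted p of 0.718 (limma), and TJP1 had 10 and 4 reads after TGF-beta1 and 0 and 0 in control cells. Among proximal tubule markers, HAVCR1 and PAX8 had sites and LRP2 had none; the epithelial marker CDH1 had none either. None of 13 fibroblast and pericyte, 6 endothelial and 7 leukocyte markers had a site. Their part in the results below was not tested.

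All 4 genes carried more crosslinked reads after TGF-beta1. FN1 had 1089 and 1009 crosslinked reads in the TGF-beta1 libraries, against 169 and 214 in the control libraries. In scaled RPM these were 309 and 287 after TGF-beta1, against 93.5 and 80.2 in control cells. Both treated libraries lay above both controls. The means were 298 ± 15.4 and 86.9 ± 9.35 scaled RPM (SD, n = 2 each), a 3.43-fold higher level in TGF-beta1 cells. The log2 difference was 1.77 ± 0.19 (SE), with an adjusted p of 0.000449 by limma over all 1266 genes tested. No control read was found at 78 of the 196 FN1 sites (39.8%), against 11.5% of all sites, and the sum includes these sites.

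COL4A1 had 69 and 59 crosslinked reads after TGF-beta1, against 7 and 20 in control cells. Its mean was 18.2 ± 1.97 scaled RPM in TGF-beta1 cells and 5.69 ± 2.57 in control cells (SD, n = 2 each), 3.20-fold higher, with a log2 difference of 1.57 ± 0.36 and an adjusted p of 0.0433 (limma). The controls differed from each other by more than the treated libraries did, and the groups did not overlap. COL4A2, which encodes the partner chain of the same collagen trimer, had 18 and 14 reads after TGF-beta1 and 8 and 11 in control cells. Its mean was 4.55 ± 0.793 scaled RPM in TGF-beta1 cells and 4.27 ± 0.212 in control cells (SD, n = 2 each), with an adjusted p of 0.968 (limma), and the difference between the 2 genes was not tested.

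TGFBI had 57 and 70 crosslinked reads in the TGF-beta1 libraries, against 8 and 11 in the control libraries. Its mean was 18.0 ± 2.66 scaled RPM in TGF-beta1 cells and 4.27 ± 0.212 in control cells (SD, n = 2 each), which is 4.22-fold higher. The log2 difference was 1.85 ± 0.33 (SE), with an adjusted p of 0.0131 (limma). Both treated libraries were well clear of both controls. No control read was found at 3 of the 11 TGFBI sites (27.3%), against 11.5% of all sites, and the sum includes these sites.

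TPM1 had 127 and 147 crosslinked reads after TGF-beta1, against 33 and 36 in control cells. Its mean was 38.9 ± 4.11 scaled RPM in TGF-beta1 cells and 15.9 ± 3.36 in control cells (SD, n = 2 each), 2.45-fold higher. The log2 difference was 1.25 ± 0.26 (SE), with an adjusted p of 0.0291 (limma), and the groups did not overlap. No control read was found at 5 of the 25 TPM1 sites (20.0%), against 11.5% of all sites, and the sum includes these sites.

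Among all genes tested, 1.58% passed as higher after TGF-beta1 and 1.50% as lower, and the median log2 difference was 0.02. Both treated libraries lay above both controls in 20.5% of them. Without TMM scaling the median of all genes was -0.45, and 6 genes passed as higher and 23 as lower, against 20 higher and 19 lower with it. Measured from that median the members differed by 1.68 (FN1), 1.53 (COL4A1), 1.82 (TGFBI) and 1.18 (TPM1) on the log2 scale, but none of the 4 then passed. With either control library left out no gene passed (limma; 165 higher and 96 lower at an unadjusted p of 0.05 without control replicate 1, and 147 and 98 without control replicate 2), and the adjusted p of the 4 members was between 0.162 and 0.336; COL4A1 and TPM1 also failed without either TGF-beta1 library, and TGFBI without TGF-beta1 replicate 2 (adjusted p = 0.0919). More RNA of a gene and more Argonaute per RNA molecule cannot be told apart in these values.

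**Figure D1:**
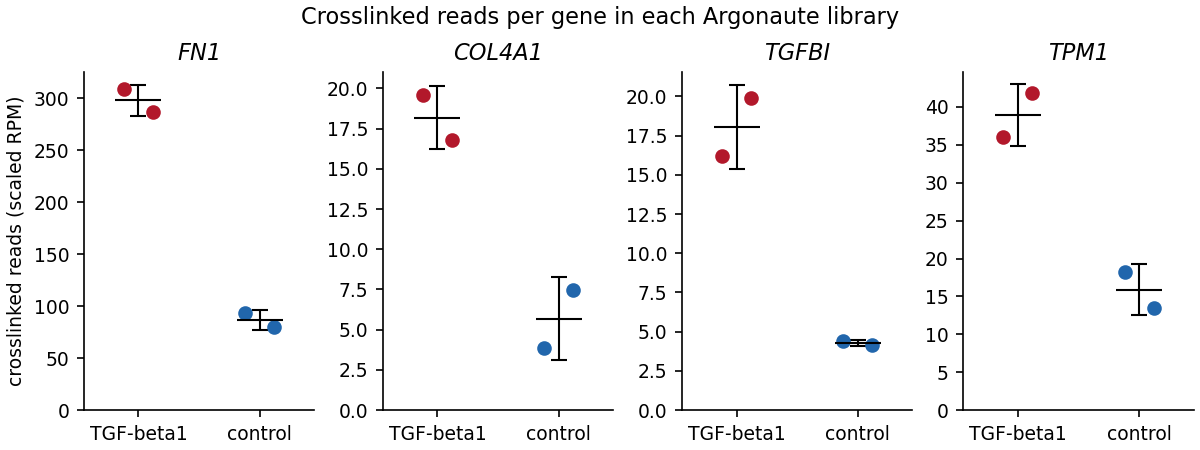
Crosslinked reads of each gene in scaled RPM (y axis, from 0, own scale in each panel) in TGF-beta1 libraries (red) and control libraries (blue). Points are libraries and bars are means ± SD (n = 2 each). In each panel both red points lie above both blue points, as for FN1 at 309 and 287 against 93.5 and 80.2.

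FN1 crosslink sites lay mostly in its coding sequence. The table lists 153 coding sites in FN1, 32 in introns, 9 in 3′ UTRs and 2 in extended 3′ UTRs. By coding sites FN1 ranks 1st of 1602 genes, the next gene having 45, and it holds 3.60% of all 4251 coding sites. The coding sites ran over 73214 nt of genome (chr2:215361567-215434780), with a median distance of 37 nt of genome between neighbours and 89 of 152 distances under 50 nt. Reads can span neighbouring sites, so these sites are not independent measurements.

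Crosslinks at FN1 coding sites rose more than 4-fold. The 153 sites together had 693 and 613 crosslinked reads after TGF-beta1, against 98 and 92 in control cells. Their mean was 186 ± 18.3 scaled RPM in TGF-beta1 cells and 44.3 ± 14.8 in control cells (SD, n = 2 each), 4.21-fold higher, with a log2 difference of 2.08 ± 0.25 and an adjusted p of 3.5e-05 (limma over sums per gene and region, a fit added after the data were seen). Of the 1227 gene regions tested, 2.85% passed as higher. Divided from the 5′ end into 4 sets of 38 or 39, the coding sites were 3.55-fold, 4.86-fold, 4.03-fold and 4.75-fold higher. The summed reads of all 4 sets were thus higher after TGF-beta1. The sums include 62 sites without any control read, listed through the TGF-beta1 libraries alone, and the folds were not computed without them. Counted as covering reads, the log2 difference was 2.49 over all FN1 coding sites. It was 1.65 over the 17 where each library had a crosslink (adjusted p = 0.034 and 0.000113, limma).

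FN1 3′ UTR sites had 303 and 335 crosslinked reads after TGF-beta1, against 54 and 98 in control cells. Their mean was 91.0 ± 5.42 scaled RPM in TGF-beta1 cells and 33.1 ± 4.15 in control cells (SD, n = 2 each), 2.75-fold higher (log2 difference 1.44 ± 0.24, adjusted p = 0.0014, limma). FN1 intron sites had 88 and 59 reads after TGF-beta1, against 17 and 21 in control cells, 2.44-fold higher (log2 difference 1.17 ± 0.33, adjusted p = 0.0447, limma). All 3 regions thus passed as higher in the main fit, with sites in each sum that are listed through the TGF-beta1 libraries alone. In the 3′ UTR 3 of 9 sites had no control read (33.3%), against 5.84% of all 3′ UTR sites. In introns 13 of 32 had none (40.6%), against 19.9% of all intron sites. The intron sum did not pass in limma with a pseudocount of 0.5 (adjusted p = 0.0516) or without TMM scaling (0.627). Nor did it pass without the filter on low counts (0.372), without the variance trend (0.177) or by covering reads at all sites (0.108). By DESeq2 its adjusted p was 0.164. The coding and 3′ UTR sums passed with any one library left out, but not without TMM scaling (log2 1.53 and 0.89, adjusted p = 0.0712 and 0.433) or without the filter on low counts (0.323 and 0.372), and the 3′ UTR sum also not without the variance trend (0.097) or by covering reads at all sites (0.108). The intron sum did not pass without TGF-beta1 replicate 1 or 2 (adjusted p = 0.803 and 0.101).

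The split of FN1 reads between regions was not shown to differ. Coding sites took 62.2 ± 2.04% of FN1 reads in TGF-beta1 libraries and 50.5 ± 10.6% in control libraries (SD, n = 2 each; exact permutation test, two-sided, p = 0.333, the smallest that 2 against 2 allows). The 3′ UTR took 30.5 ± 3.80% in TGF-beta1 libraries and 38.9 ± 9.79% in control libraries (exact permutation p = 0.667, n = 2 each). Introns took 6.96 ± 1.58% in TGF-beta1 libraries and 9.94 ± 0.174% in control libraries (exact permutation p = 0.333, n = 2 each). There were 2.29 and 1.83 coding reads per 3′ UTR read after TGF-beta1, against 1.81 and 0.939 in control cells. At the 22 FN1 sites crosslinked in every library the differences in the coding and 3′ UTR shares had the opposite sign, -2.33 and 3.97 percentage points.

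Single FN1 coding sites were thinly covered. They had 2 to 33 crosslinked reads over the 4 libraries, with a median of 8.0, and none had enough reads for the test per site. No control read was found at 62 of the 153 (40.5%), against 12.2% of all coding sites, in control libraries that are shallower; these sites are listed through the TGF-beta1 libraries alone.

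Seed matches were scarcer in FN1 coding sites than in coding sites as a whole, as counts without a test. The authors list a 7 nt match at 12 of 153 (7.84%), against 15.5% of all coding sites. No match is listed at 81 (52.9%), against 40.3%. A match directly beside the crosslinked T was present at 11 (7.19%), against 20.0%. A seed match and at least 10 reads were found at 28 coding sites, which fall into 21 seed families with 10 to 33 reads and a median of 12.5 each.

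The most crosslinked FN1 coding site carries a 6 nt match to the miR-148 family (chr2:215423444) and had 17 and 13 reads after TGF-beta1, against 0 and 3 in control cells. At the coding site that matches 7 nt of the miR-17 family, which the study's title names, there were 8 and 12 reads after TGF-beta1, against 2 and 1 in control cells. Its scaled RPM were 2.46 and 3.43 in TGF-beta1 libraries and 1.11 and 0.344 in control libraries. Both treated libraries lay above both controls at either site, and neither had enough reads for a test. The same held at 106 of the 153 FN1 coding sites (69.3%), and at 1147 of all 4251 coding sites. A 3′ UTR site with a miR-17 family match (chr2:215361089) had 2 and 4 reads after TGF-beta1 and none in either control library. The letters GCACTTT of the miR-17 match occur in 1.39% of all windows in the table (sense strand only).

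**Figure D2:**
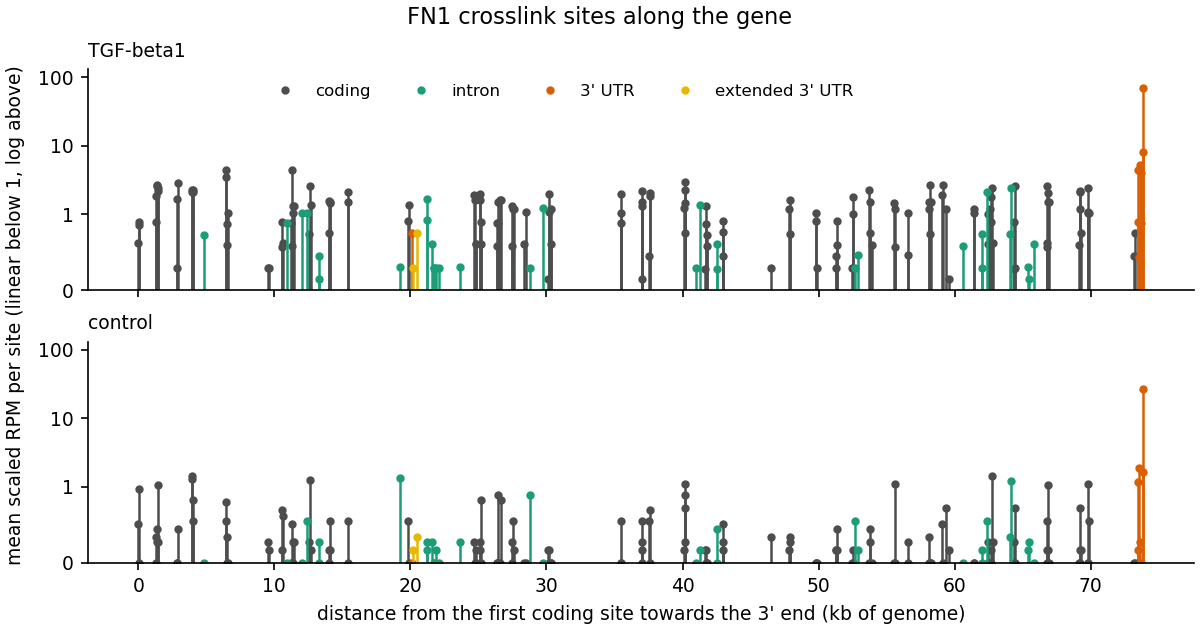
Each FN1 crosslink site by its distance in kb of genome from the first coding site (x axis) and its mean scaled RPM (y axis, linear below 1 and log above) in TGF-beta1 libraries (top) and control libraries (bottom), coloured by region. Low coding sites run along the whole gene and 1 tall 3′ UTR site stands at its 3′ end, at 69.8 in TGF-beta1 cells and 26.6 in control cells.

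The crosslinked share of covering reads, both summed over sites, was low in FN1 coding sequence. In TGF-beta1 libraries 693 of 13233 covering reads were crosslinked in replicate 1 (5.24%, 95% Wilson interval 4.87 to 5.63%) and 613 of 9583 in replicate 2 (6.40%, 5.92 to 6.90%). In control libraries the shares were 98 of 929 (10.5%, 8.73 to 12.7%) and 92 of 1043 (8.82%, 7.25 to 10.7%). Because covering reads were summed over sites, a read that spans neighbouring sites counts at each of them. The intervals treat these counts as separate reads and leave out any spread between libraries. Whether the close spacing of FN1 coding sites lowers their share was not tested. Coding sites of genes outside the 4 had 14.5 and 18.5% in TGF-beta1 libraries and 25.2 and 27.6% in control libraries.

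FN1 coding sites were thus below the other genes in 4 of 4 libraries (exact paired permutation test, two-sided, p = 0.125, the smallest that 4 pairs allow; 0.438 after Benjamini-Hochberg adjustment over the 7 regions compared). Among the 60 genes with at least 10 coding sites, the median share was 9.87 and 10.9% in TGF-beta1 libraries and 15.6 and 16.8% in control libraries. In these libraries 0 and 3 of the 60 genes lay below FN1 after TGF-beta1, and 4 and 1 in control cells. TGFBI, with 7 coding sites, was lower than FN1 after TGF-beta1, at 2.90 and 5.76%. Its control shares were higher, at 28.6 and 40.0%, from 14 and 5 covering reads. The share is lower after TGF-beta1 in FN1 and in the other genes alike, and covering reads are recorded as 0 wherever a library has no crosslink, which moves shares up where reads are few.

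FN1 3′ UTR and intron sites were not below other genes in all 4 libraries. In the FN1 3′ UTR 22.5 and 26.7% of covering reads were crosslinked in TGF-beta1 libraries and 24.8 and 29.5% in control libraries, against 25% and 26.3% and 31.8 and 33.1% in the 3′ UTRs of other genes (exact paired permutation p = 0.25, 4 pairs, adjusted 0.438). In FN1 introns the shares were 17.4 and 22.8% after TGF-beta1 and 41.5 and 42.9% in control cells, the control values from 41 and 49 covering reads, against 18.5 and 21.7% and 26.7 and 29.2% in the introns of other genes (exact paired permutation p = 0.375, 4 pairs, adjusted 0.525). COL4A1 3′ UTR sites were below other genes in 4 of 4 libraries, at 18.2 and 20.8% in TGF-beta1 libraries and 26.3 and 30% in control libraries (exact paired permutation p = 0.125, 4 pairs, adjusted 0.438). TPM1 3′ UTR sites had 21.1 and 29.9% in TGF-beta1 libraries and 25% and 26.8% in control libraries.

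**Figure D3:**
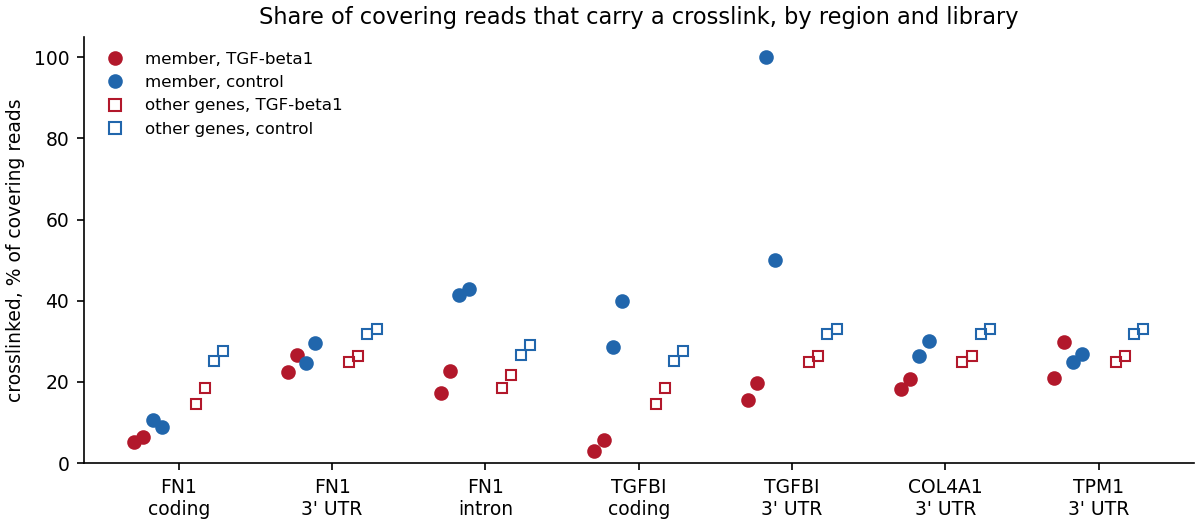
Crosslinked reads as a percentage of covering reads, both summed over sites (y axis), for regions of the 4 genes (filled circles) and for the same region of all other genes (open squares), in each TGF-beta1 library (red) and control library (blue). FN1 coding sites lie between 5.24 and 10.5%, below the other genes in every library; the TGFBI control points rest on few reads.

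In the FN1 3′ UTR 1 site dominated. The site with the miR-183 match (crosslinked T at chr2:215360923) had 213 and 259 reads after TGF-beta1, against 44 and 84 in control cells, and its 600 reads are 75.9% of all FN1 3′ UTR reads and 24.2% of all FN1 reads. Its mean was 69.8 ± 5.94 scaled RPM in TGF-beta1 cells and 26.6 ± 3.25 in control cells (SD, n = 2 each), 2.62-fold higher (log2 difference 1.36 ± 0.22, adjusted p = 0.000317, limma over 1059 sites). It did not pass without TGF-beta1 replicate 1 (adjusted p = 0.152), without TMM scaling (log2 0.71, 0.596), without the filter on low counts (0.255), without the variance trend (0.0888), or by covering reads at all sites (0.179) or at sites crosslinked in every library (0.112). Of the sites tested, 3.68% passed as higher. The greater part of the covering reads was crosslinked in each library: 213 of 389 and 259 of 364 after TGF-beta1, and 44 of 79 and 84 of 143 in control cells.

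The authors list miR-183-5p for this site, with 6 nt of complementarity to its bases 3 to 8. The window also holds GTGCCAAA, 8 nt complementary to bases 1 to 8 of miR-96-5p, directly after the crosslinked T. miR-183 and miR-96 are made from one precursor transcript together with miR-182, and their seeds differ. GTGCCAAA occurs in 31 of 16230 windows (0.191%), and in 21 of 6332 windows in 3′ UTRs (0.332%). Letters in a window do not show which microRNA was bound.

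A second FN1 site lies 16 nt downstream and carries a 6 nt miR-27 match (chr2:215360907). It had 25 and 30 reads after TGF-beta1, against 1 and 8 in control cells, with means of 8.14 ± 0.616 and 1.65 ± 1.56 scaled RPM (SD, n = 2 each). The log2 difference was 1.92 ± 0.54 and the adjusted p 0.032 (limma). It did not pass without TGF-beta1 replicate 1 (adjusted p = 0.7) or control replicate 1 (0.0796). Its covering reads, 403 and 379 after TGF-beta1 and 85 and 145 in control cells, were close in number to those of its neighbour, so the 2 sites largely share reads.

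The other seed matched 3′ UTR sites of FN1 with at least 10 reads lie further upstream. The second miR-27 site (chr2:215361125), with the 7 nt match ACTGTGA, had 19 and 7 reads after TGF-beta1 and none in either control library, where a count of 0 allows up to 1.66 and 1.03 scaled RPM (3 reads). Its levels in TGF-beta1 libraries were 5.85 and 2.00 scaled RPM. The miR-200b site (chr2:215361311) had 16 and 14 reads after TGF-beta1, against 3 and 2 in control cells, or 4.93 and 4.00 scaled RPM against 1.66 and 0.689. The miR-200 family is known for holding epithelial identity by repressing ZEB1 and ZEB2. Neither site had enough reads for the test.

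Other FN1 positions carried few reads. The most crosslinked intron site had 9 and 7 reads after TGF-beta1, against 0 and 7 in control cells, with no seed match listed. The intron site with a miR-103 match had 7 and 7 reads after TGF-beta1, against 2 and 0 in control cells. A further 3 sites annotated as 3′ or extended 3′ UTR lie in the middle of the gene (chr2:215414318-215414663), with 3 to 7 reads each. Leaving out the dominant 3′ UTR site changed the FN1 difference little (log2 1.97, adjusted p = 0.000822, limma), and leaving out all coding sites gave log2 1.39 (adjusted p = 0.00716).

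COL4A1 was bound in its 3′ UTR, with 10 sites there, 3 in introns and none in coding sequence. The 3′ UTR had 58 and 55 crosslinked reads after TGF-beta1, against 5 and 18 in control cells, 3.43-fold higher in scaled RPM (log2 difference 1.67 ± 0.39, adjusted p = 0.0178, limma over gene regions); it did not pass without TGF-beta1 replicate 1 or 2 (0.174 and 0.0955). The site with the 7 nt miR-181 match (chr13:110149578) held 50 of its 136 reads: 19 and 28 after TGF-beta1, against 0 and 3 in control cells. Without that site the COL4A1 difference was log2 1.03 and no longer passed (adjusted p = 0.248, limma).

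The other COL4A1 sites were lower. The miR-26 site (chr13:110149401) had 10 and 7 reads after TGF-beta1, against 0 and 3 in control cells. A site listed for miR-29a, a family known for repressing collagen mRNAs, had 9 and 3 reads after TGF-beta1, against 2 and 0 in control cells. The let-7 site, whose family has the second highest microRNA count among the seeds listed for the 4 genes in the authors' deposited table (97405 in RPM), had 2 and 4 reads after TGF-beta1, against 0 and 5 in control cells. The groups overlapped at the let-7 and miR-29a sites in scaled RPM, and not at the miR-181 and miR-26 sites. Both treated libraries lay above both controls at 2 of the 10 COL4A1 3′ UTR sites, a share close to that of all 3′ UTR sites (1391 of 6332).

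TGFBI had 4 sites in its 3′ UTR and 7 in coding sequence. The 3′ UTR had 41 and 44 crosslinked reads after TGF-beta1, against 4 and 9 in control cells, 4.37-fold higher (log2 difference 1.81 ± 0.39, adjusted p = 0.0108, limma over gene regions); without TGF-beta1 replicate 1 or 2 it did not pass (0.188 and 0.221). One site, with an 8 nt run complementary to bases 1 to 8 of miR-21-5p (chr5:136063650), held 73.5% of these reads. miR-21 has the highest count of the microRNAs listed for the 4 genes in the authors' deposited table (376262 in RPM) and is known to rise in fibrotic kidney.

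The TGFBI miR-21 site had 30 and 33 reads after TGF-beta1, against 3 and 6 in control cells. Its mean was 9.33 ± 0.134 scaled RPM in TGF-beta1 cells and 1.86 ± 0.288 in control cells (SD, n = 2 each), 5.01-fold higher (log2 difference 1.86 ± 0.48, adjusted p = 0.0172, limma). The adjusted p was 0.577 without TGF-beta1 replicate 1 and 0.252 without replicate 2. All 3 and 6 covering reads were crosslinked in control libraries, and 30 of 56 and 33 of 56 in TGF-beta1 libraries. Without this site the TGFBI difference was log2 1.60 (adjusted p = 0.0783, limma). The TGFBI coding site with the most reads, listed for miR-27 (chr5:136047289), had 1 and 9 reads after TGF-beta1, against 2 and 0 in control cells, and there the groups overlapped.

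TPM1 sites lay in 3′ UTRs (9), extended 3′ UTRs (8), coding sequence (4), introns (3) and at 1 position annotated as both coding and 3′ UTR. The 3′ UTR had 92 and 106 crosslinked reads after TGF-beta1, against 20 and 30 in control cells, 2.54-fold higher (log2 difference 1.27 ± 0.29, adjusted p = 0.0178, limma over gene regions); without TGF-beta1 replicate 1 or 2 it did not pass (0.126 and 0.234). Extended 3′ UTR sites had 16 and 23 reads after TGF-beta1, against 9 and 2 in control cells, and did not pass (adjusted p = 0.435). There the groups overlapped in scaled RPM.

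The most crosslinked TPM1 site has a miR-29a match (chr15:63071528) and held 48.0% of the 3′ UTR reads. It had 45 and 49 reads after TGF-beta1, against 11 and 14 in control cells, with means of 13.9 ± 0.099 and 5.45 ± 0.891 scaled RPM (SD, n = 2 each), 2.56-fold higher (log2 difference 1.22 ± 0.37, adjusted p = 0.0434, limma). It did not pass without TGF-beta1 replicate 1 or 2 or control replicate 2 (adjusted p = 0.598, 0.31 and 0.142). The window holds TGGTGCTA, complementary to bases 1 to 8 of miR-29a-3p, which occurs in 74 of 16230 windows (0.456%). A neighbouring site 23 nt downstream without a seed match had 14 and 12 reads after TGF-beta1, against 3 and 5 in control cells, and nearly the same covering reads. Without the miR-29a site the TPM1 difference was log2 1.26 (adjusted p = 0.0509, limma).

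The second TPM1 miR-29a site (chr15:63070489) had 7 and 5 reads after TGF-beta1, against 3 and 3 in control cells, or 2.16 and 1.43 scaled RPM against 1.66 and 1.03, so its groups overlapped. The miR-22 site had 8 and 28 reads after TGF-beta1, against 0 and 7 in control cells, or 2.46 and 8.0 scaled RPM against 0 and 2.41. The site listed for miR-221 and miR-222 had 7 and 2 reads after TGF-beta1, against 1 and 0 in control cells. None of these had enough reads for the test.

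**Figure D4:**
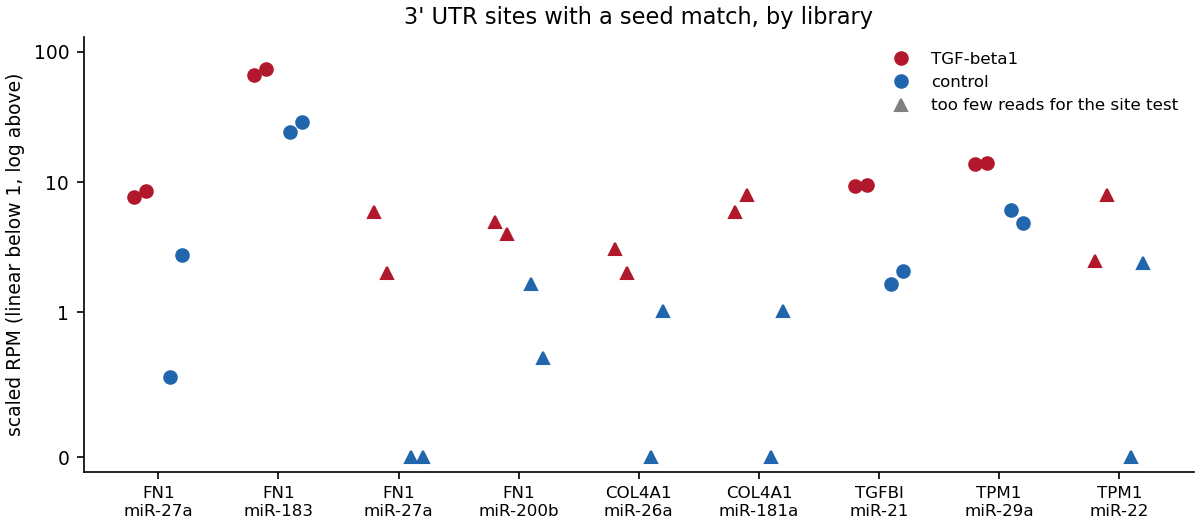
Scaled RPM (y axis, linear below 1 and log above) of chosen 3′ UTR sites with a listed seed match, named by gene and microRNA (x axis), in each TGF-beta1 library (red) and control library (blue). Left out are the COL4A1 let-7 and miR-29a sites and the second TPM1 miR-29a site, where the groups overlapped. The TPM1 site listed for miR-221 and miR-222 is also left out. Circles mark the 4 tested sites, all higher after TGF-beta1, the FN1 miR-183 site at 69.8 against 26.6 on average; triangles mark sites with too few reads for the test.

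The members were compared with other genes of the same kind through lists of named genes. Of 56 matrix protein genes 18 had a site and 11 were tested. FN1, COL4A1 and TGFBI passed as higher and none as lower, with a median log2 difference of 0.43. Without these 3 the median of the other 8 was 0.12, against 0.02 over all genes. SPARC, a collagen-binding secreted protein, had 40.6 ± 0.501 scaled RPM in TGF-beta1 cells and 20.8 ± 4.46 in control cells (SD, n = 2 each; adjusted p = 0.0836, limma).

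In the other direction, SPP1 (osteopontin) had 40.1 ± 4.92 scaled RPM in TGF-beta1 cells and 71.4 ± 18.7 in control cells (SD, n = 2 each; adjusted p = 0.135, limma). COL8A1 had 1.85 ± 0.196 in TGF-beta1 cells and 6.51 ± 1.39 in control cells (adjusted p = 0.149, limma), and NID1, a basement membrane linker, had 1.42 ± 1.21 in TGF-beta1 cells and 5.59 ± 1.64 in control cells (adjusted p = 0.189, limma). SPARC and these 3 genes had an unadjusted p under 0.05, as did 13.8% of all genes, and did not pass over all genes. The list thus held values in both directions outside the 3 members.

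Of 48 contractile and actin filament genes 31 had a site and 12 were tested, with 2 higher, none lower and a median log2 difference of 0.61. Without TPM1 the median of the other 11 was 0.55, against 0.02 over all genes. TPM1 and ACTG1, cytoplasmic gamma actin, passed, where 1.58% of all genes passed as higher. ACTG1 had 85.8 ± 2.60 scaled RPM in TGF-beta1 cells and 44.4 ± 0.267 in control cells (SD, n = 2 each; adjusted p = 0.0353, limma). ACTB, its near-identical paralog, had 55.4 ± 4.56 in TGF-beta1 cells and 26.4 ± 7.18 in control cells (adjusted p = 0.0517, limma), and reads shared between the 2 actins may be assigned to either.

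FLNA, an actin crosslinker, had 16.1 ± 0.966 scaled RPM in TGF-beta1 cells and 8.47 ± 1.81 in control cells (SD, n = 2 each; adjusted p = 0.216, limma). CNN2, a calponin, had 60.5 ± 6.58 in TGF-beta1 cells and 41.0 ± 3.85 in control cells (adjusted p = 0.267, limma). ACTB, FLNA and CNN2 are named for an unadjusted p under 0.05, as had 13.8% of all genes. In the other direction, VCL, CNN3 and MYL6 had log2 differences of -0.46, -0.24 and -0.06 and did not pass. ACTA2, smooth muscle actin, had no site. Of 22 matrix receptor genes 12 had a site and 7 were tested, with a median log2 difference of 0.52. ITGB8, an integrin subunit, was the 1 that passed, as lower, as did 1.50% of all genes. Its level was 0.993 ± 1.00 in TGF-beta1 cells and 12.2 ± 2.38 in control cells (adjusted p = 0.0124, limma). This rests on 1 site, with 6 and 1 reads after TGF-beta1 and 19 and 37 in control cells.

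The epithelial marker CLDN1, a tight junction protein, had 3.69 ± 0.795 scaled RPM in TGF-beta1 cells and 14.6 ± 6.79 in control cells (SD, n = 2 each; adjusted p = 0.0559, limma). By Euclidean distance of centred log2 values over the 4 libraries, the tested genes nearest to FN1 were TGFBI (0.30) and SCARNA4, a small Cajal body RNA (0.31), and those nearest to TGFBI were SCARNA4 (0.27) and FN1 (0.30). COL4A1 was nearest to ZNF91, a zinc finger protein (0.25), and ENAH, an actin regulator (0.42), and TPM1 to HSPA5, a chaperone of the endoplasmic reticulum (0.13), and AKAP12, a kinase anchor (0.21). FN1 and TGFBI were thus each among the other's 2 nearest genes over 4 libraries that were also used in the test.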

How the data were processed

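The authors deposited 2 RPM values per site and library, crosslinked reads and covering reads, per the file headers, with GENCODE release 27 annotation and seed matches; the microRNA count per seed is a score in the deposited table, in RPM, rounded by the authors. STAR 2.7.1a, bcl2fastq 2.20.0.422, bedtools and hg38 are named in the submitters' processing notes. For the crosslink caller, filters and thresholds, the program is not given in the sources used here. RPM were whole multiples of 1 read (100% within 0.1 reads), so reads were recovered. Covering reads were 0 wherever a library had no crosslinked read, so crosslinked reads were used. Sums per gene, per site and per gene region were tested with limma 3.58.1 (variance trend) on log2(TMM-scaled RPM + 1) after filterByExpr (edgeR 4.0.16, minimum count 10), two-sided, Benjamini-Hochberg adjusted p under 0.05; the log2 scale with its pseudocount understates changes of low genes. A fold change is the ratio of 2 group means in scaled RPM. DESeq2 1.42.0 and edgeR were alternatives. Sites were named if tested, most read in their gene, or seed matched with at least 10 reads; FN1 sites of that kind are summarised. The members and gene lists were chosen with earlier results of these data known. Whether replicates are separate cultures is not in the labels; p-values then measure only how far these libraries spread, and that spread may be technical. Another 4 columns of per-sample values belong to RNA-seq samples outside this series and were not used. Another gene is not reported here.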

Additional observations from a re-analysis of the deposited data

How the results depend on the processing

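All alternatives kept the 4 genes, the 4 tested sites and the tested gene regions higher after TGF-beta1 wherever they were tested. Without the variance trend 3 genes and 25 sites passed, and the members had log2 differences of 1.77 (FN1, adjusted p = 0.0728), 1.57 (COL4A1, 0.131), 1.85 (TGFBI, 0.0728) and 1.25 (TPM1, 0.17). The trend was kept with these counts known. Without TMM scaling the differences were 1.23, 1.07, 1.37 and 0.73 (adjusted p = 0.133, 0.358, 0.168 and 0.565 for FN1, COL4A1, TGFBI and TPM1), and 28 sites passed. Without the filter on low counts 4 genes and 0 sites passed (limma; at an unadjusted p of 0.05, 2013 sites higher and 306 lower), with COL4A1 at 1.72 (0.371), TGFBI at 1.99 (0.18) and TPM1 at 1.41 (0.235). DESeq2 gave COL4A1 1.66 (adjusted p = 0.0727) and 42 sites, and the TGFBI miR-21, FN1 miR-27 and TPM1 miR-29a sites did not pass in it (0.0509, 0.105 and 0.15). Without TMM scaling, without the filter and by covering reads at all sites none of the 4 tested sites passed. Covering reads at all sites gave 25 genes and 0 sites (limma; 863 higher and 234 lower unadjusted), with COL4A1 at 1.97 (0.0697) and TPM1 at 1.47 (0.0703). Covering reads restricted to sites with a crosslink in every library gave 84 genes and 202 sites, with TPM1 at 0.89 (0.0537); COL4A1 was then not tested. With 3′ UTR sites only 70 genes passed. Alternatives added after the data were seen left out the most crosslinked site of each member: COL4A1 1.03, TGFBI 1.60 and TPM1 1.26 did not pass. Leaving out each library in turn gave 0 to 24 genes, 3 to 110 sites, and differences of 1.65 to 1.94 (FN1), 1.23 to 1.94 (COL4A1), 1.77 to 2.06 (TGFBI) and 1.04 to 1.52 (TPM1); the lone library of a group was assumed to vary like the other group. The 0 genes came without control replicate 1 (limma; 165 higher and 96 lower unadjusted) and without control replicate 2 (147 and 98); DESeq2 and edgeR were not run on these subsets. The FN1 share differences then ranged from -15.3 to -1.44 points (3′ UTR), 4.21 to 19.2 (coding) and -4.09 to -1.85 (introns). At sites crosslinked in every library they were 3.97, -2.33 and -1.63 points, and by covering reads the intron difference was -0.59. The replicate block gave 57 genes and 117 sites; same-numbered libraries deviated together only weakly (correlation 0.131 over genes and 0.117 over sites, 2 pairs), the numbers were therefore not used as pairs, and the block changed no call of the 4 genes, but 15 gene regions passed with it, and the 3′ UTRs of COL4A1, TGFBI and TPM1 and the FN1 introns did not (adjusted p = 0.0824 to 0.105). The causes of these changes were not tested. Single coding sites had too few reads to be tested at this depth.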
